A study of Mus musculus with 6 samples.

Results

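The S100 calcium-binding proteins were followed through 8 of their genes, S100a8, S100a9, S100a4, S100a6, S100a1, S100a10, S100a11 and S100a13, out of 19938 genes that had a probe set of their own. The 8 genes were chosen by name with the measured difference between knockdown and wild type already known, so their differences are given as a description and carry no test. The data come from 6 Affymetrix expression arrays, each of total RNA from 1 mouse. Wild type and MYB knockdown were represented by 3 mice each, males of the C57BL6 strain aged 4 weeks, from whose bone marrow cells were sorted as Kit+, CD11b+ and lineage-low (K11bL). The labels give no allele, promoter or agent for the knockdown, and the spread between arrays is the spread between animals.

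S100 proteins are small proteins with a pair of EF-hand loops that bind calcium, and most work as dimers that change shape with calcium and then grip a partner protein. In bone marrow the best known are S100a8 and S100a9, which pair as calprotectin, an abundant protein of the neutrophil cytosol that withholds zinc and manganese from microbes and signals to other cells through receptors such as Tlr4. S100a4 and S100a6 act inside cells on the cytoskeleton and on protein turnover, S100a10 and S100a11 bind annexins at membranes, S100a1 acts on calcium pumps and channels, and S100a13 takes part in the release of growth factors that lack a signal peptide.

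The 4 members with the widest differences lie in 1 run of S100 genes on chromosome 3, and the letters around their start sites are shown because S100a4 and S100a6 were higher and S100a8 and S100a9 lower within that run. RefSeq promoter windows of the mouse build GRCm38.p6, from 250 bases before to 50 after the annotated start, were found for 7 of the 8 members (S100a10 was the exception). They are printed 5′ to 3′ on the strand of the gene, with capitals on each AACNG, the core letters of the MYB recognition sequence, read on both strands.
S100a8 (chr3:90668821-90669120, plus strand): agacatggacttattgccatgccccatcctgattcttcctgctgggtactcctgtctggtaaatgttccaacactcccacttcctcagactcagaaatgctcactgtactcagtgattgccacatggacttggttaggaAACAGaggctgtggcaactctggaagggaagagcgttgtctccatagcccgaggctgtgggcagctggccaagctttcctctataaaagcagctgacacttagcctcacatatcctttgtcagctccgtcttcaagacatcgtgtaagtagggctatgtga
S100a9 (chr3:90695672-90695971, minus strand): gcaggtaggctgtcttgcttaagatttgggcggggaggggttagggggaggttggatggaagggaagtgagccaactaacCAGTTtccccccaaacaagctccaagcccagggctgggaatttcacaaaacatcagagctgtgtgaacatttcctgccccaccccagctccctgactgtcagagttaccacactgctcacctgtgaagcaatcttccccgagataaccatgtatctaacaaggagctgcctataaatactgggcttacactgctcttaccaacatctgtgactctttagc
S100a4 (chr3:90603520-90603819, plus strand): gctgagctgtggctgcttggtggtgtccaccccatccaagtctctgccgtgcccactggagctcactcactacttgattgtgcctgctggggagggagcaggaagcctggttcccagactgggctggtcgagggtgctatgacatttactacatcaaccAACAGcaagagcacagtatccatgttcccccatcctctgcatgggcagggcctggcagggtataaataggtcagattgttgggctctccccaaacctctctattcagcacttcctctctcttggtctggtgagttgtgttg
S100a6 (chr3:90612644-90612943, plus strand): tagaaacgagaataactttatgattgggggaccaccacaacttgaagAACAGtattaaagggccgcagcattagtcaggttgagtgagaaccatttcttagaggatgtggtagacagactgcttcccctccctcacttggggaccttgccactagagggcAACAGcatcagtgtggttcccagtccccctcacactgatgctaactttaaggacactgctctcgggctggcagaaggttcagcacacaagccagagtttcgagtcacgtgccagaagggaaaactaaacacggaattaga

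The AACNG core was found 1 time each in the windows of S100a8, S100a9 and S100a4 and 2 times in that of S100a6. It is a short and common word: 80.3% of the 32851 RefSeq promoter windows of this length hold it, with a median of 2 matches. S100a1 and S100a11 had 2 and 3 matches and S100a13 had 4. The windows of S100a1 and S100a13 share 204 bases, since these genes are read in opposite directions from neighbouring starts, so 2 of their matches are the same letters. The word TATAAA, the core of the TATA box, was present in the windows of S100a8, S100a9 and S100a4 and in none of the other 4 windows, against 13.6% of all windows. Counting the first transcribed base as 1 and the base before it as -1, it began at -30 in S100a8, at -31 in S100a4 and at 1 in S100a9. GAGGAA, a core of PU.1 sites, had 2 matches in S100a8 and 1 each in S100a4 and S100a11 (28.3% of all windows hold it), and TTGCNNAA, a core of C/EBP sites, had 1 match, in S100a9 (10.8% of all windows). No matches of different words overlapped except GAGGAA and an AACNG in S100a11. These are letter matches, searched on both strands, and the arrays carry no measure of binding.

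Myb itself had log2 values of 11.47, 11.46 and 11.46 in the wild type mice and 11.26, 11.08 and 11.14 in the knockdown mice. The groups did not overlap, and Myb fell by 0.30 ± 0.06 (SE; limma, adjusted p = 0.0196). This call was lost without any 1 wild type mouse (adjusted p = 0.0965, 0.0894 and 0.0926 without mice 1, 2 and 3), without knockdown mouse 2 (0.0776), after median centring (0.074) and without the trend (0.0662). The sort markers were present on every array, with lower means in knockdown. Kit lay between 10.38 and 10.58 in wild type and between 10.21 and 10.24 in knockdown. It differed by -0.27 ± 0.08 (SE, limma, adjusted p = 0.06). Kit was called without knockdown mouse 3 (0.0147), after quantile normalization (0.0405) and with the 50% filter (0.0497). Itgam, which encodes CD11b, lay between 9.81 and 9.90 in wild type and between 9.07 and 9.85 in knockdown. It differed by -0.39 ± 0.17 (adjusted p = 0.202) and was called without knockdown mouse 1 (0.0239). The array medians lay between 5.87 and 5.99. Knockdown mouse 3 stood apart from the other knockdown arrays, with correlations over all probe sets of 0.977 and 0.984 where knockdown mice 1 and 2 had 0.994, so members are given with and without it where it matters.

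Calprotectin transcripts were lower in every knockdown mouse. S100a8 had log2 values of 12.01, 11.96 and 11.98 in the wild type mice and 10.94, 10.26 and 10.42 in the knockdown mice. The wild type mice lay almost on top of each other, and the highest knockdown value was more than 1 log2 unit below the lowest of them. Group means were 11.99 ± 0.03 and 10.54 ± 0.36 (SD, n = 3 each), a difference of -1.45 ± 0.15 (SE), or 2.73-fold lower. S100a9, its partner chain, had 11.74, 11.71 and 11.68 in wild type and 10.55, 10.08 and 10.87 in knockdown. These groups did not overlap either, with means of 11.71 ± 0.03 and 10.50 ± 0.40 (SD, n = 3 each) and a difference of -1.21 ± 0.17 (SE), or 2.32-fold lower. Of the 13956 genes tested, 97 had a larger difference downward than S100a8 and 144 than S100a9.

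The balance between the calprotectin chains was even among wild type mice and uneven among knockdown mice. The within-array log2 ratio of S100a8 to S100a9 was 0.28, 0.25 and 0.30 in wild type. In knockdown mice 1, 2 and 3 it was 0.39, 0.18 and -0.45. Knockdown mouse 3 had the lowest ratio by a wide margin, and without that mouse the differences of S100a8 and S100a9 were -1.39 and -1.40. The size of this ratio depends on the probes, so only its change between mice can be read. A wider ratio in knockdown was not particular to this pair, whose SD was 0.03 in wild type and 0.44 in knockdown. For S100a1 to S100a13 the SD was 0.08 and 0.48, and for S100a10 to S100a11 it was 0.16 and 0.85. S100a4 to S100a6 went the other way, with 0.29 and 0.15.

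**Figure D1:**
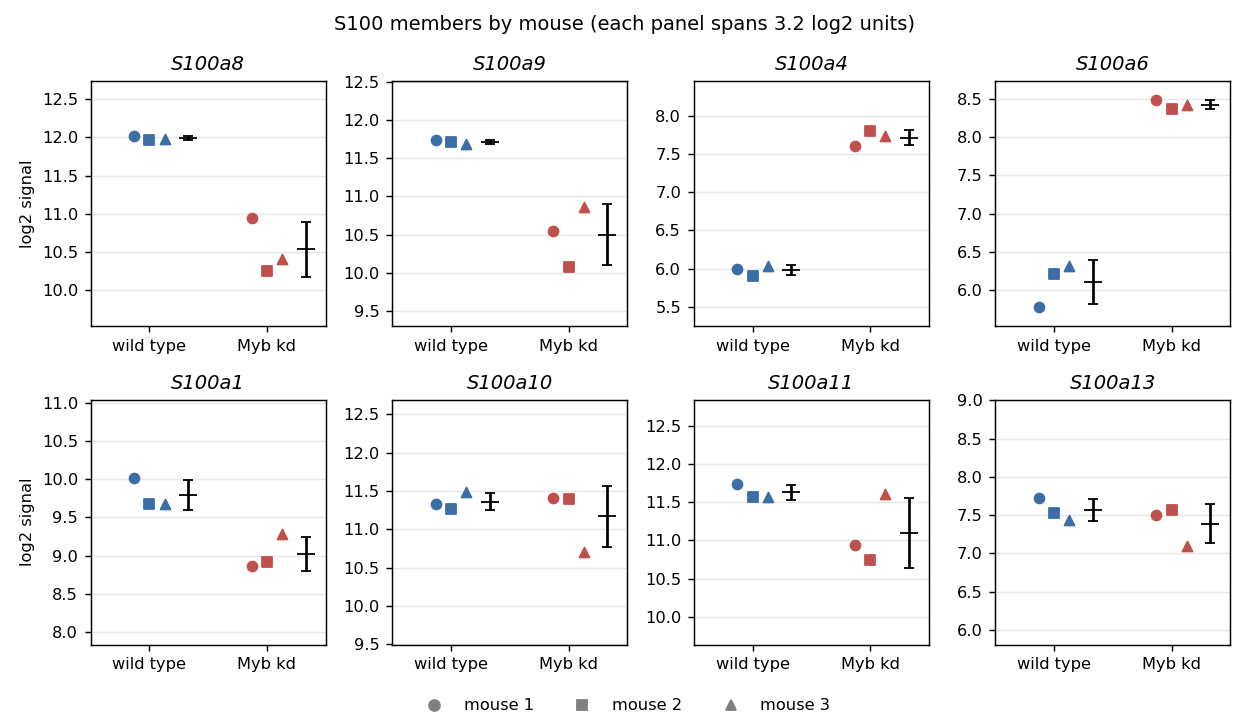
Log2 signal of the 8 S100 members in each mouse, with wild type in blue, knockdown in red, mouse numbers by marker shape, and the group mean with its SD in black. Every panel spans the same range of log2 units; S100a8, S100a9 and S100a1 lie lower and S100a4 and S100a6 higher in all 3 knockdown mice, and the groups of S100a10, S100a11 and S100a13 overlap.

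S100a4 and S100a6 went the other way, with much closer agreement among knockdown mice. S100a4, also called metastasin, is a partner of non-muscle myosin and a gene of motile and mesenchymal cells. Its log2 values were 6.0, 5.91 and 6.03 in wild type and 7.60, 7.79 and 7.73 in knockdown. All knockdown values lay over 1.5 log2 units above all wild type values, and the difference was 1.73 ± 0.10 (SE), or 3.32-fold higher, from 5.98 ± 0.06 to 7.71 ± 0.10 (SD, n = 3 each). S100a6, calcyclin, was first described as a gene of growing cells. It had 5.78, 6.22 and 6.32 in wild type and 8.48, 8.37 and 8.42 in knockdown. Here it was the wild type mice that spread, with wild type mouse 1 the lowest, while the knockdown mice lay within 0.11 log2 units. The means were 6.11 ± 0.28 and 8.42 ± 0.06 (SD, n = 3 each) and the difference 2.32 ± 0.15 (SE), or 4.99-fold higher. Only 7 of the 13956 genes tested had a larger upward difference than S100a6, and 21 than S100a4. In wild type both genes lay near the array medians of 5.94 to 5.99, so their folds start from dim signals.

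S100a1, best known from heart and skeletal muscle, was lower in knockdown by a smaller step. Its values were 10.01, 9.67 and 9.68 in wild type and 8.87, 8.92 and 9.28 in knockdown. The groups did not overlap, but knockdown mouse 3 came within 0.5 log2 units of the wild type mice. The difference was -0.77 ± 0.14 (SE), or 1.70-fold lower, and it was -0.66 without wild type mouse 1 and -0.90 without knockdown mouse 3. S100a13, whose promoter window overlaps that of S100a1, had 7.72, 7.53 and 7.44 in wild type and 7.50, 7.57 and 7.10 in knockdown. These groups overlapped, and the difference was -0.17 ± 0.15 (SE).

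The annexin-binding members S100a10 and S100a11 were split by knockdown mouse 3. S100a10, or p11, holds annexin A2 in a tetramer at the plasma membrane. It had 11.34, 11.27 and 11.48 in wild type and 11.40, 11.40 and 10.71 in knockdown. Knockdown mice 1 and 2 lay within the wild type range and knockdown mouse 3 well under it, so the difference was -0.19 ± 0.17 (SE) on all arrays and 0.04 without that mouse. S100a11, a partner of annexin A1, had 11.74, 11.57 and 11.57 in wild type and 10.94, 10.74 and 11.61 in knockdown. Here it was the other way round, as knockdown mice 1 and 2 lay below the wild type mice and knockdown mouse 3 among them. The difference was -0.53 ± 0.19 (SE) on all arrays and -0.79 without that mouse. A second probe set named for S100a11 differed by -0.50 and showed the same order of mice, but whether both probe sets read separate sequence is not given in the sources used here.

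**Figure D2:**
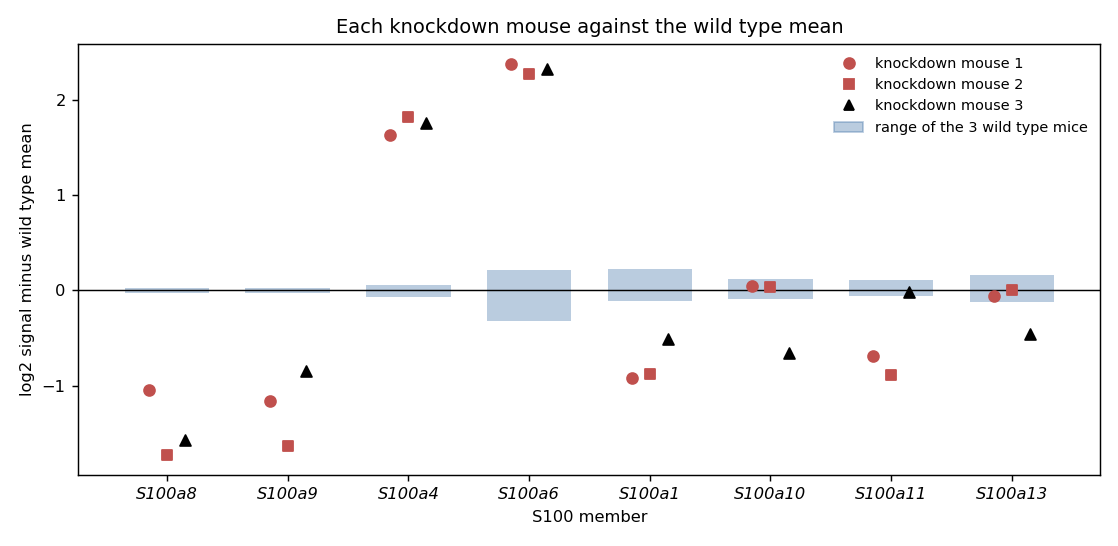
Log2 signal of each knockdown mouse minus the wild type mean, for each S100 member; the blue band is the range of the 3 wild type mice around their mean. Knockdown mouse 3, in black, is the farthest below the wild type mean for S100a10 (-0.66) and S100a13 (-0.46) and the nearest to it for S100a9 (-0.84), S100a1 (-0.51) and S100a11 (-0.02).

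All 8 members passed the filter on dim genes, and every value of every member was above the filter level of 5.11, so none entered through its brighter group only. Of the 8, 2 were higher and 3 lower with an adjusted p under 0.05 in the limma fit over all genes; in that fit 11.6% of the 13956 genes were called, 6.12% higher and 5.48% lower. The same 5 members had groups that did not overlap, 2 higher and 3 lower. Among all genes tested 34.3% had such groups, 19.9% higher and 14.4% lower. As the members were picked with this contrast in view, calls of members are no test of them. Nothing is read from these calls or shares. Without knockdown mouse 3, S100a11 was also called and 4 members were lower; without wild type mouse 1, S100a1 was not called and 2 were lower. The count over all genes moved far more, from 854 higher and 765 lower to 2391 and 1399 without knockdown mouse 3, to 298 and 365, 309 and 381, and 357 and 389 without wild type mice 1, 2 and 3, and to 428 and 481 without knockdown mouse 2. After median centring of the arrays it was 1433 higher and 593 lower, while the members stayed at 2 and 3. The SD was larger in knockdown than in wild type for 7 of the 8 members, S100a6 being the exception, and for 79.9% of all genes tested, so the wider spread is shared with most genes.

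Members that differed in opposite directions lie within the same run of S100 genes. By the RefSeq annotation, 15 S100 genes lie on chromosome 3, and the first 12, from S100a1 to S100a9, follow each other with no other protein-coding gene between them. S100a4 and S100a6 are separated by S100a5 alone, and S100a6 and S100a8 by S100a7a alone. S100a11 and S100a10 lie next to each other beyond S100a7l2 and 54 further protein-coding genes. The deposited table names no genome build, so this annotation serves for gene order only.

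None of the other S100 genes, which are no members, passed the test. Of 9 listed, 8 had a probe set of their own and 5 passed the filter. With limma 0 of the 5 were called and 0 had an unadjusted p under 0.05. These 5 were dim as well, with group means from 5.25 (S100a16) to 6.02 (S100a7a) against array medians of 5.87 to 5.99. A change in such genes may be missed. They are also what was left once the members had been chosen, so nothing is read from this count. S100a5, between S100a4 and S100a6, had 5.39, 5.35 and 5.35 in wild type and 5.42, 5.62 and 5.47 in knockdown. Its knockdown values were all above its wild type values by a small margin, with a difference of 0.14 ± 0.09 (SE; adjusted p = 0.391). S100a7a, between S100a6 and S100a8, differed by 0.06 ± 0.13 (adjusted p = 0.848) and S100a16 by -0.01 ± 0.11 (adjusted p = 0.969). Away from chromosome 3, S100b, a glial S100 protein, differed by -0.02 ± 0.11 (adjusted p = 0.939) and S100g, the calbindin of the gut, by 0.06 ± 0.11 (adjusted p = 0.803). S100a3, S100a14 and S100z were too dim for the test, with differences of 0.02, -0.03 and -0.02, and so was S100a2 (0.07), which was added to the list after its values were seen. S100a7l2 is not analysed here.

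**Figure D3:**
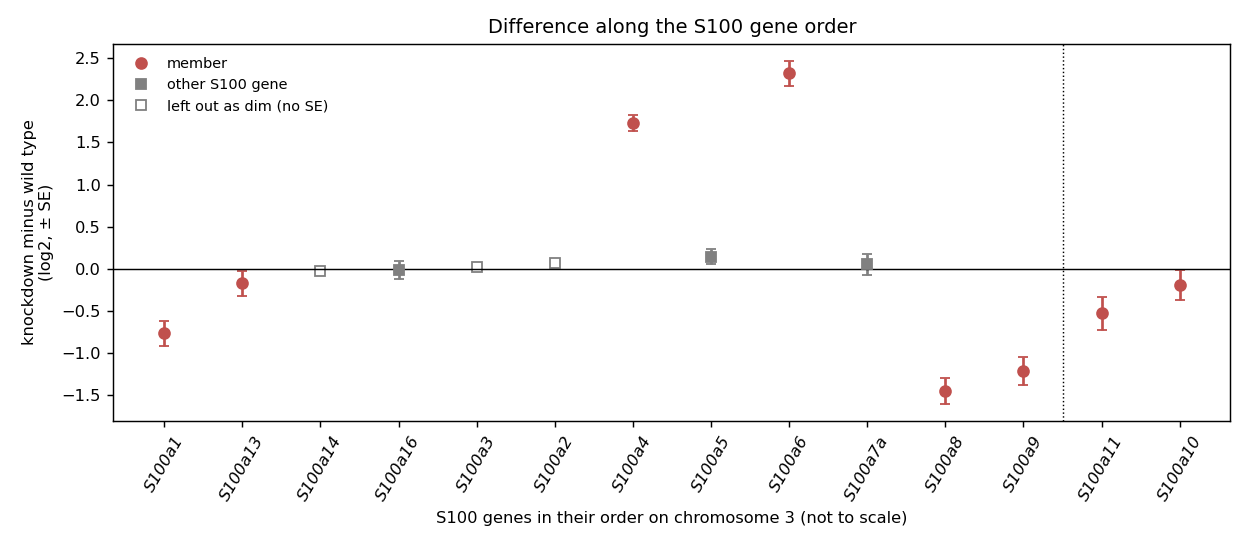
Difference between knockdown and wild type (log2, with the SE of the fit) for 14 S100 genes in their order on chromosome 3; members are red circles, other S100 genes grey squares, and open squares are genes left out as dim. The dotted line marks the long stretch of other genes after S100a9. S100a4 (1.73) and S100a6 (2.32) stand on either side of S100a5 (0.14), and S100a8 (-1.45) follows S100a7a (0.06).

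Among the annexins, the membrane proteins that several S100 dimers bind, 1 of 9 tested genes fell and 0 rose. It was Anxa3, an annexin of neutrophil granules, with values of 11.23, 10.82 and 11.01 in wild type and 10.14, 9.88 and 9.18 in knockdown. The groups were more than 0.5 log2 units apart, and Anxa3 fell by 1.29 ± 0.22 (SE; adjusted p = 0.00831), although without wild type mouse 1 its adjusted p was 0.0506. Anxa2, the partner of S100a10, differed by 0.02 ± 0.12 (adjusted p = 0.962), and Anxa1, the partner of S100a11, by -0.45 ± 0.13 (adjusted p = 0.0595). In the same fit 11.6% of all genes tested were called. That share belongs beside this count and those of the partners and transcription factors below. These lists were chosen with earlier results of these data known, so their counts are no independent test. Uncalled genes named from them were picked after their values were seen. The median difference of the list was 0.02, the same as that of all genes tested. Its count rested on the arrays and the scaling used: 2 rose and 3 fell without knockdown mouse 3 and after quantile normalization (Anxa4 and Anxa9 up; Anxa1, Anxa3 and Anxa6 down), 2 rose and 1 fell after median centring, and 2 fell without knockdown mouse 1. On all arrays Anxa6 differed by -0.35 with its brightest probe set and by -0.19 with the mean of its probe sets. Without wild type mouse 1, limma called 0 annexins. With every array, an unadjusted p under 0.05 was reached by 5 of the 9. The share of all genes at that level is not given here, so nothing is read from it.

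Of the other partners and receptors of S100 proteins, 1 of 10 tested genes fell and 0 rose. Tlr4, the endotoxin receptor that also responds to calprotectin, had 7.70, 7.09 and 7.24 in wild type and 6.04, 5.69 and 5.40 in knockdown. It was lower in every knockdown mouse and fell by 1.63 ± 0.20 (SE; adjusted p = 0.0015, and between 9.51e-05 and 0.00801 under the alternatives). Ager, the receptor for advanced glycation end products and another receptor of S100 proteins, differed by -0.04 ± 0.10 (adjusted p = 0.865). The intracellular partners did not pass the test: Myh9, the myosin heavy chain that S100a4 binds, differed by -0.04 ± 0.07 (adjusted p = 0.791), Cacybp, the calcyclin-binding protein, by 0.12 ± 0.14 (adjusted p = 0.651) and Ahnak, a large scaffold held by S100a10 and annexin A2, by 0.03 ± 0.09 (adjusted p = 0.911). The median of the list was 0.01. Without knockdown mouse 3, 2 of these genes rose (Atp2a2 and Cacybp) and 2 fell (Rac2 and Tlr4).

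Of 9 transcription factors of granulocytes and monocytes, 2 fell and 0 rose. Gfi1, a repressor needed for neutrophil formation, had 9.24, 8.87 and 9.02 in wild type and 7.57, 7.61 and 7.48 in knockdown. These groups lay more than 1 log2 unit apart, and Gfi1 fell by 1.49 ± 0.12 (SE; adjusted p = 0.000192). Cebpd, a C/EBP factor induced in inflammation, fell by 0.62 ± 0.11 (adjusted p = 0.00799), but its adjusted p was 0.0535 and 0.0537 without wild type mouse 1 or 3, which left 1 called factor. Without knockdown mouse 3, 3 of the factors fell, Klf4 being the third. Cebpe, which drives the late granule programme, differed by -0.001 ± 0.11 (adjusted p = 0.998), Cebpa by 0.29 ± 0.14 (adjusted p = 0.227) and Spi1, which encodes PU.1, by 0.14 ± 0.11 (adjusted p = 0.467). The median of this list was -0.08.

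**Figure D4:**
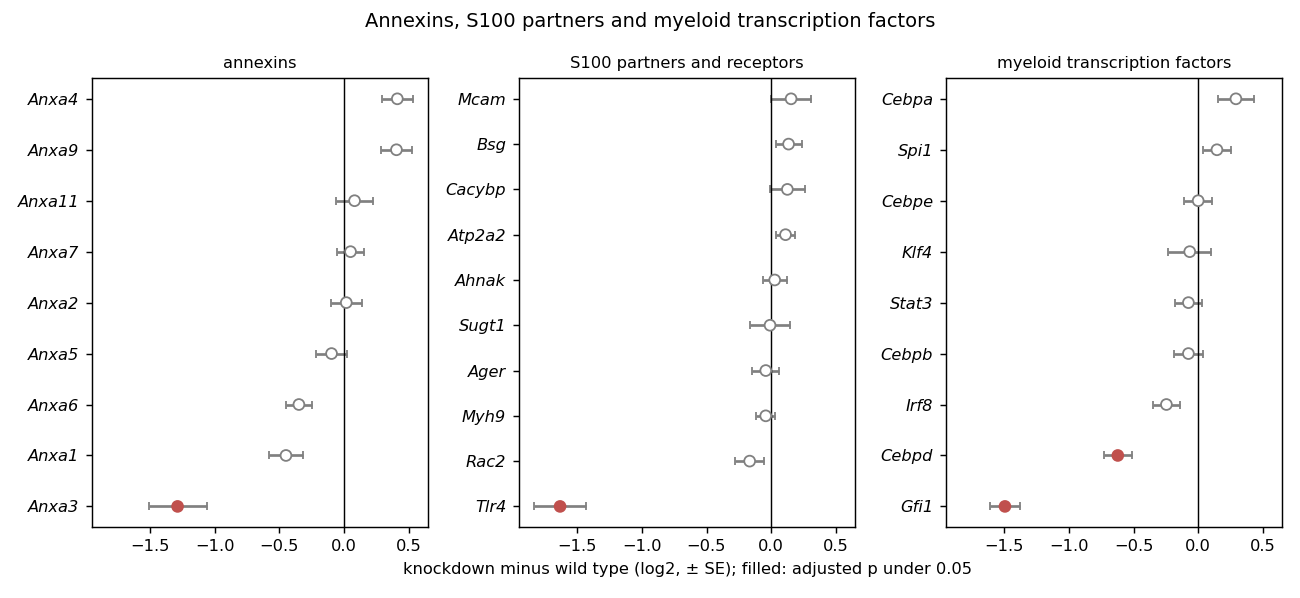
Difference between knockdown and wild type (log2, with the SE of the fit) for the tested annexins, S100 partners and receptors, and myeloid transcription factors; filled points have an adjusted p under 0.05. Anxa3 (-1.29), Tlr4 (-1.63), Gfi1 (-1.49) and Cebpd (-0.62) are the filled points, all below 0.

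Markers of several cell types moved between the groups together with the S100 genes, and in sorted bulk RNA fewer cells of a type and less RNA per cell cannot be told apart. Summed levels are given as log2 of the summed linear signals of a list. A signal above 0 does not show that a marker is expressed. Cd3g, with means of 3.97 in both groups, lay under the filter level of 5.11. Among all genes tested 6.12% were called higher and 5.48% lower. These shares belong beside each marker count here and in the next paragraph. The marker lists were chosen with earlier results of these data known, so their counts are no independent test. Beside S100a8 and S100a9, 7 of 15 genes of late neutrophil granules and mature neutrophils fell and 2, Mmp8 and Padi4, rose, with a summed level of 14.48 to 14.75 in wild type and 12.98 to 13.73 in knockdown. Camp, the cathelicidin, fell by 3.36 ± 0.36 (adjusted p = 0.000794), while Ngp and Lcn2, other proteins of those granules, differed by -0.53 ± 0.18 (adjusted p = 0.0926) and -0.36 ± 0.13 (adjusted p = 0.13). Marker genes named here and in the next paragraph were picked after their values were seen, so their adjusted p values are a description. Differences of the 15 genes ran from -5.68 (Chil3) to 3.26 (Mmp8), with a median of -1.50. S100a8 and S100a9 lay within that wide range. The number that fell was 6 without wild type mouse 2 or 3. It was 8 with the replicate block or without knockdown mouse 1, and 9 without knockdown mouse 3. Ngp fell with the replicate block and without knockdown mouse 2 or 3. Cxcr2 differed by 0.61 ± 0.17 (adjusted p = 0.0504) and was not called. It was called with the replicate block, the 50% filter or the mean of probe sets, and without knockdown mouse 3. Quantile normalization and median centring also brought it in. The list of 8 primary granule genes also holds Ms4a3 and Igsf6, which encode membrane proteins, and Calr, which encodes a chaperone. Of the 8, 7 fell and 0 rose, Calr not being called. Their summed level was 14.87 to 15.03 in wild type and 13.74 to 13.91 in knockdown. The part of these cells in the lower S100a8 and S100a9 values was not tested.

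Beside S100a4 and S100a6, which are abundant in monocytes and macrophages, 3 of 11 genes that mark monocytes and macrophages rose and 2 fell, with overlapping summed levels of 13.07 to 13.29 in wild type and 12.92 to 13.16 in knockdown. Cd68 rose by 1.23 ± 0.18 (adjusted p = 0.00402) and F13a1 fell by 2.84 ± 0.34 (adjusted p = 0.00137). Cx3cr1 lost its call when wild type mouse 1, wild type mouse 3 or knockdown mouse 2 was dropped, leaving 2 that rose. Dropping knockdown mouse 1 gave 3 that fell. With knockdown mouse 3 dropped, 4 rose (Ccr2 was added) and the median of the list was 0.28 against 0.05 on all arrays. Of 7 megakaryocyte and platelet genes 6 rose and 0 fell, and the summed level went from 10.77 to 10.93 in wild type to between 12.05 and 12.25 in knockdown. Their part in the higher S100a4 and S100a6 values was not tested. Of 5 erythroid genes 0 were called by limma (2 at an unadjusted p under 0.05), with summed levels of 9.24 to 9.80 and 8.99 to 10.38. Of 4 B and T lymphoid genes tested 1, Ebf1, fell. Summed levels over the 7 lymphoid genes with a probe set, Cd79a, Cd3g and Cd8a among them too dim for the test, were 9.95 to 10.18 and 9.87 to 10.06. Most of that sum was Cd79b, with means of 9.53 in wild type and 9.57 in knockdown. The Ebf1 call was lost when wild type mouse 2, wild type mouse 3 or knockdown mouse 2 was dropped, when the filter was removed and when no trend was fitted, and the 50% filter left Ebf1 out; limma then called 0 lymphoid genes.

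For each of the 4 members with the widest differences, the 3 genes whose values ran closest over the 6 arrays were found. Closeness was measured as the root mean square distance in log2 units after subtracting each gene's own wild type mean, and since the genes were chosen for likeness this is a description over 6 arrays. Nearest to S100a8 were Mcemp1, a membrane protein of myeloid and mast cells (distance 0.09, difference -1.36), Tcn2, the vitamin B12 carrier transcobalamin (0.10, -1.43), and Sgms2, a sphingomyelin synthase (0.12, -1.48). Nearest to S100a9 were Slc6a12, a betaine transporter (0.04, -1.24), Pglyrp1, a peptidoglycan recognition protein of neutrophil granules (0.08, -1.14), and Arsb, a lysosomal sulfatase (0.11, -1.15). S100a8 and S100a9 lay 0.30 from each other, farther than either lay from its own 3 nearest genes.

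For S100a4 the nearest genes were Emilin2, a glycoprotein of the extracellular matrix (distance 0.11, difference 1.60), Tlr13, an endosomal receptor for bacterial ribosomal RNA (0.12, 1.64), and Macroh2a2, a histone variant (0.13, 1.77). For S100a6 they were farther off, led by Csf2rb2, the IL-3 receptor beta chain of mice (0.26, 2.13), Lifr, the receptor of leukaemia inhibitory factor (0.28, 2.05), and Ccr1, a chemokine receptor (0.32, 2.35). S100a4 and S100a6 lay 0.46 from each other. Among the remaining members the closest pairs were S100a10 and S100a13, at 0.16, and S100a1 and S100a11, at 0.23, and neither pair lies side by side on the chromosome.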

How the data were processed

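The deposited table holds 1 log2 signal per probe set and array for 35556 probe sets, made by the authors. Affymetrix Expression Console and limma are named in the submitters' processing notes; the sources used here give no version, role, background correction or normalization. Arrays carry no read depth, and 3 mice per group limit the precision. Probe sets with exactly 1 symbol were used (21789), with the highest mean over all 6 arrays per gene, and the lowest 30% of genes were left out, which left 13956.

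The 2 groups were compared by the lmFit and trended eBayes functions of limma 3.58.1, run in R 4.3.3 without covariates, with Benjamini-Hochberg adjustment over all genes tested at 0.05; the code was tested on simulated data. Differences are knockdown minus wild type. Members and the 11 gene lists were chosen with earlier results of these data known. Named genes were Myb, Kit, Itgam, the members, the other S100 genes, up to 5 called genes in each of 3 related lists and, for S100a8, S100a9, S100a4 and S100a6, the 3 nearest genes; predicted genes were passed over. Other list genes named were picked after their values were seen. Alternatives were the replicate block, each array left out, quantile normalization, median centring, no filter or 50%, the mean of probe sets, and no trend.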

Additional observations from a re-analysis of the deposited data

How the results depend on the processing

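Of the differences of the 8 S100 members, only that of S100a10 changed sign under an alternative tried, without knockdown mouse 3 (0.04). The replicate block, the filters and the fit without a trend cannot move a difference. With 1 array left out in turn, S100a8 ranged from -1.65 to -1.31, S100a9 from -1.40 to -1.0, S100a4 from 1.69 to 1.78, S100a6 from 2.16 to 2.43, S100a1 from -0.90 to -0.66, S100a11 from -0.79 to -0.35 and S100a13 from -0.26 to -0.03. The number of genes called ranged from 663 to 3790, annexins from 0 to 5, S100 partners and receptors from 1 to 4, and myeloid transcription factors from 1 to 3; fewer arrays alone can lower a count. Annexins numbered 2 with the replicate block, 5 after quantile normalization and 3 after median centring; the cause was not tested. The mouse numbers name different animals, and same-numbered deviations from the group means correlated at 0.293, -0.188 and -0.083. With 3 arrays per group such deviations are tied to each other, so these correlations cannot decide whether the numbers pair the arrays. The replicate block called 1472 genes. With a filter at 50% no other S100 gene was left to test.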
